A study of Homo sapiens with 12 samples.

Results

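Transcript levels of 7 matricellular genes, POSTN, SPOCK1, SPARC, THBS1, THBS2, TNC and TGFBI, were followed through TGF-β treatment of WI-38 cells, a human lung fibroblast line. The genes were taken by symbol, and all 7 were found among the 25702 genes of the count table and among the 9490 genes that had a cpm value, the count scaled to the size of its library, of 10 or more in at least 6 of the 12 libraries.

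Matricellular proteins are secreted into the extracellular matrix but act less as scaffold than as regulators of how cells adhere to, assemble and remodel it. Periostin (POSTN) and TGFBI share fasciclin domains and bind integrins and collagen. SPARC binds collagen and calcium, and SPOCK1 (testican-1) is a proteoglycan that carries a SPARC-type domain. Thrombospondins 1 and 2 (THBS1 and THBS2) bind CD47, integrins and proteases, and THBS1 can activate latent TGF-β. Tenascin-C (TNC) modulates adhesion to fibronectin and appears during wound repair. Several of these genes are textbook TGF-β targets in fibroblasts.

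Total RNA was sequenced from 4 conditions of 3 flasks each. D1 cells were untreated and D1+ TGF-β cells had received TGF-β at 2 ng/mL, both collected on day 1 at passages 2 to 3. D20 cells and D20+ TGF-β cells were collected on day 20 at passages 5 to 6, the latter kept in TGF-β throughout, with media changed every 2 days. The study's methods state that 1 flask of each treatment seeded the day 20 flasks and that 3 of 5 RNAs per condition were sequenced. The day 20 flasks of a treatment thus share an origin, and day and passage cannot be told apart. The p-values therefore measure only the spread between such flasks. For each gene that spread was estimated over all 12 libraries, so p-values of day 20 comparisons also depend on the day 1 flasks. Library totals ranged from 8674488 to 18286197 counts. All 10 fibroblast markers examined, among them VIM, COL1A1 and PDGFRB, were at or over 10 cpm in every library. In D1+ TGF-β vs D1, COL1A1, COL1A2 and FAP were called higher and PDGFRA lower (edgeR, adjusted p below 0.01). In D20+ TGF-β vs D20, COL1A1 and FAP were called higher and PDGFRA, DCN and THY1 lower. Of 5 epithelial, 5 endothelial and 5 leukocyte markers, 4 in each list stayed under 10 cpm in every library, with CDH5, LYZ and CD3E at 0. The exceptions were KRT19 at 4.718 to 26.26 cpm, TEK at 32.6 to 244.7 cpm and CD68 at 37.46 to 61.55 cpm. TEK, highest at D20 with a mean of 233.9 cpm, was lower at D20+ TGF-β with a log2 fold change of −0.97 (edgeR, adjusted p = 0.00327), and the summed endothelial list ranged from 219.2 to 246.6 cpm in D20 flasks and from 76.75 to 149.6 cpm in D20+ TGF-β flasks; its part in the results was not tested. Among smooth muscle and myofibroblast markers, ACTA2 rose at day 1 with a log2 fold change of 2.07 (edgeR, adjusted p = 2.28e-06). At day 20 ACTA2 differed by 0.13 (edgeR, adjusted p = 0.554). TAGLN had log2 fold changes of 0.87 at day 1 (edgeR, adjusted p = 0.00042) and 0.06 at day 20 (adjusted p = 0.757). CNN1 rose at day 1, at 1.21 (edgeR, adjusted p = 4.57e-06), and was lower at day 20, at −0.44 (adjusted p = 0.00509). MYH11 and DES did not exceed 1.175 and 0.6986 cpm. The summed level of the 5 genes of that list was 887.3 to 1444 cpm in D1 flasks, 2579 to 2812 with TGF-β on day 1, 1373 to 1460 in D20 flasks and 1393 to 1624 with TGF-β on day 20, and its part in the results was not tested. Replicate 2 of D1 lay apart from the other D1 flasks, with a root mean square log2 distance of 0.343 and 0.327 against 0.224 between replicates 1 and 3. Replicate 3 of D20+ TGF-β lay 0.297 and 0.291 from its fellow flasks, which were 0.14 apart. In RNA from whole flasks, a change in the number of cells that express a gene and a change in RNA per cell cannot be told apart.

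After 1 day of TGF-β, 6 of the 7 genes had risen (adjusted p below 0.01), and after 20 days 3 of the 7 were above untreated cells of the same day. POSTN, SPOCK1 and THBS2 rose at both times, with larger log2 fold changes at day 20. SPARC, TNC and TGFBI rose at day 1 and did not pass the test at day 20. THBS1, whose day 1 call depended on D1 replicate 2, passed it at neither time. Over all genes tested, 6.89% were called higher in D1+ TGF-β vs D1 and 12.8% in D20+ TGF-β vs D20, or 13.4% and 27.5% in either direction. In all 7 genes the 3 treated flasks of day 1 lay above the 3 untreated ones, a pattern that 17.5% of all genes showed. At day 20 this held for POSTN, SPOCK1, THBS2 and TNC, against 28.7% of all genes.

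**Figure D1:**
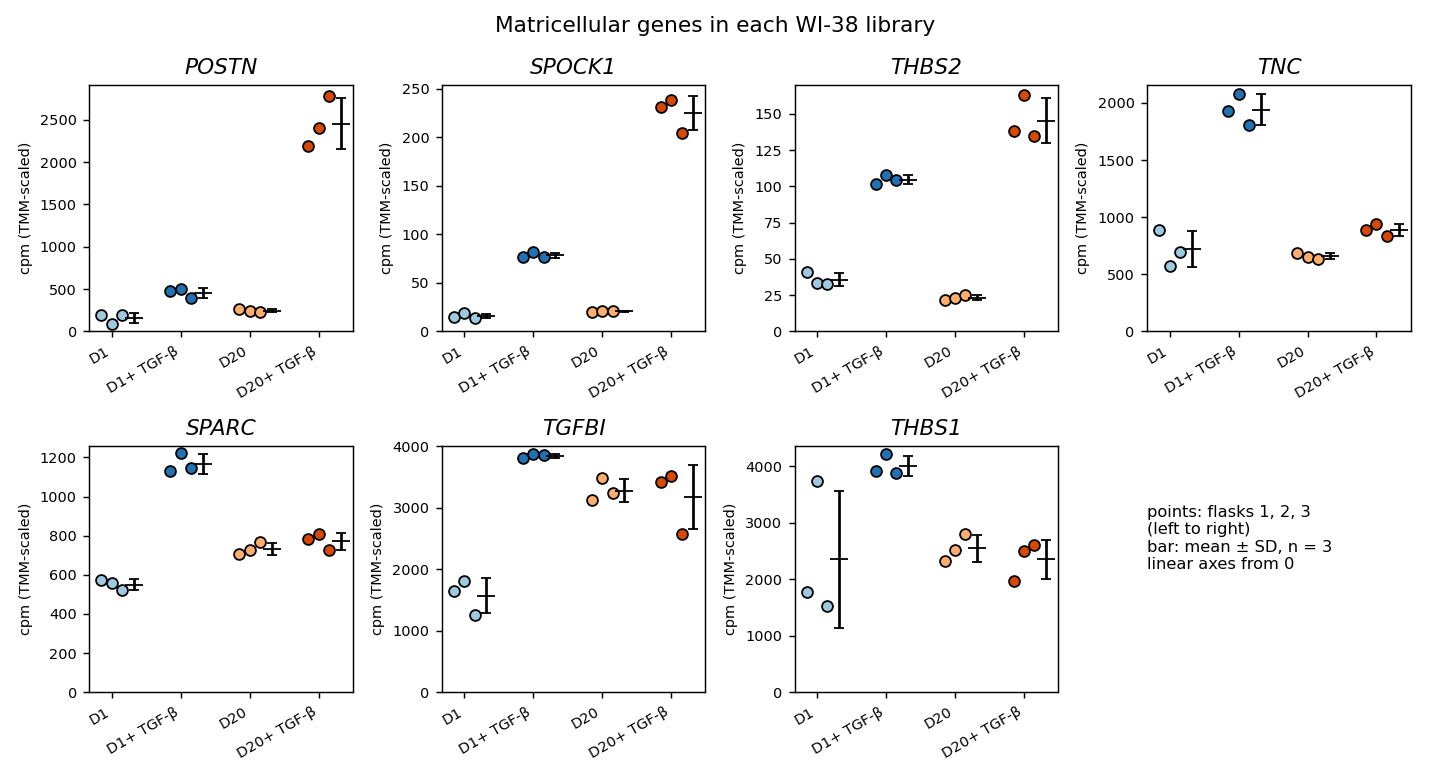
Expression of the 7 matricellular genes in each library, in TMM-scaled cpm on linear axes that start at 0; points are the 3 flasks of a condition and the bar beside them is the mean ± SD. POSTN, SPOCK1 and THBS2 are highest at D20+ TGF-β, SPARC and TNC at D1+ TGF-β, and the D1 flask of replicate 2 stands above the other D1 flasks for THBS1.

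POSTN (Entrez 10631; GRCh37, chromosome 13, 38136720 to 38172981, minus strand) encodes the fasciclin-domain protein periostin, which binds collagen I and supports collagen cross-linking. Its levels were 193.1, 89.04 and 189.3 cpm in the D1 flasks and 476.4, 504.1 and 389.3 cpm in the D1+ TGF-β flasks. At day 20 they were 269.8, 237.1 and 231.5 cpm without TGF-β and 2188, 2397 and 2777 cpm with it. Every treated flask lay above every untreated flask at both times, and the D20+ TGF-β flasks were far above all others. The day 1 rise had a log2 fold change of 1.54 (SE 0.22, edgeR, adjusted p = 0.000242), the 47th highest of 9490 genes. At day 20 POSTN ranked 2nd of all genes by log2 fold change. Between the treated conditions, POSTN rose from day 1 to day 20 with a log2 fold change of 2.43 (SE 0.23, edgeR, adjusted p = 4.12e-06). Between the untreated conditions its log2 fold change was 0.65 (SE 0.22, edgeR, adjusted p = 0.0244), and with the 2 libraries that lay apart left out it was 0.35 (adjusted p = 0.00393).

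The 250 bases before the POSTN start as annotated by RefSeq are shown because POSTN and THBS2 both had a larger TGF-β response at day 20 than at day 1, while THBS1, the close relative of THBS2, did not, although POSTN and THBS2 moved apart over time in untreated cells. Promoter windows of 6 of the 7 genes were found in the RefSeq table of GRCh38.p14. The gene without a window there was SPOCK1, whose response was also larger at day 20. Each window matched GRCh37 exactly at 1 position, and positions below are on GRCh37. Capitals mark exact matches, on either strand, to 5 motifs chosen after the sequences were seen. These were the SMAD box, spelled CAGAC, and the core recognised by TEAD factors, spelled GGAATG. The others were the AP-1 site, spelled TGACTCA, the GC box, spelled GGGCGG, and the TATA box, spelled TATAAA. No base fell in more than 1 match. For POSTN (chr13:38172906-38173155, minus strand) the window had 36.4% G and C, and 76 of its bases lay inside the outermost GENCODE extent of the gene.
POSTN: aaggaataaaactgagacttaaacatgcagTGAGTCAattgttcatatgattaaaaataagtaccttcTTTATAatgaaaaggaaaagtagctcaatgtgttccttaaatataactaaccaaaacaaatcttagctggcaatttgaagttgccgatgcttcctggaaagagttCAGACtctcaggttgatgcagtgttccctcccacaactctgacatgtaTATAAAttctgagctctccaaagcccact
It held TATAAA 29 and 182 bases before the start, CAGAC at 77 and TGACTCA at 220. Of 35116 RefSeq windows of the same length, 10.7% held TATAAA, 38.0% CAGAC and 4.2% TGACTCA.

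TGFBI (Entrez 7045; chromosome 5, 135364677 to 135399507, plus strand), the second fasciclin-domain gene, was named for its induction by TGF-β and encodes a protein that links collagens to integrins. Its levels were 1646, 1807 and 1254 cpm at D1 and 3798, 3864 and 3855 cpm at D1+ TGF-β, where the flasks were closely spaced. At D20 they were 3119, 3474 and 3239 cpm, and at D20+ TGF-β 3416, 3519 and 2578 cpm. TGFBI thus rose at day 1 with a log2 fold change of 1.29 (SE 0.13, edgeR, adjusted p = 1.82e-05), whereas the day 20 conditions overlapped, with a log2 fold change of −0.05 (SE 0.13, adjusted p = 0.798). Untreated cells rose over time, with every D20 flask above every D1 flask and below every D1+ TGF-β flask: D20 exceeded D1 with a log2 fold change of 1.06 (SE 0.13, edgeR, adjusted p = 2.4e-05). D20+ TGF-β differed from D1+ TGF-β by −0.28 (SE 0.13, edgeR, adjusted p = 0.1). Without replicate 3 of D20+ TGF-β, the lowest flask of its condition, the day 20 log2 fold change was 0.08 (edgeR, adjusted p = 0.625).

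SPOCK1 (Entrez 6695; chromosome 5, 136310987 to 136934068, minus strand) encodes a heparan and chondroitin sulfate proteoglycan. Untreated flasks held 14.86, 18.6 and 13.97 cpm on day 1 and 20.3, 20.58 and 20.99 cpm on day 20. Treated flasks held 76.54, 81.53 and 76.73 cpm on day 1 and 231.3, 238.6 and 204.9 cpm on day 20. No treated flask overlapped an untreated one. SPOCK1 ranked 8th of 9490 genes in the day 1 comparison, with a log2 fold change of 2.30 (SE 0.10, edgeR, adjusted p = 8.73e-09), and 1st at day 20. Between days 1 and 20 of treatment it rose further, with a log2 fold change of 1.52 (SE 0.09, edgeR, adjusted p = 1.69e-07). D20 also exceeded D1, with a log2 fold change of 0.38 (SE 0.10, edgeR, adjusted p = 0.00842), but that call did not hold under 15 of 23 alternatives, among them leaving out D1 replicate 1 or 3, any D1+ TGF-β or D20 replicate, or D20+ TGF-β replicate 1, and its adjusted p ranged from 3.77e-05 to 0.0405.

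SPARC (Entrez 6678; chromosome 5, 151040657 to 151066536, minus strand), the collagen-binding glycoprotein also called osteonectin, is a relative of SPOCK1 by its SPARC-type domain. It was at 572.7, 555.7 and 520.3 cpm at D1 and at 1129, 1225 and 1148 cpm at D1+ TGF-β. At day 20 it was at 705.5, 726.8 and 767.7 cpm without TGF-β and at 783.2, 808.4 and 724.9 cpm with it. The day 1 conditions were well apart, with a log2 fold change of 1.09 (SE 0.07, edgeR, adjusted p = 3.16e-07). The day 20 conditions overlapped, with a log2 fold change of 0.07 (SE 0.07, edgeR, adjusted p = 0.44). SPARC moved in opposite directions over time in the presence and absence of TGF-β: it rose from D1 to D20 by 0.42 on the log2 scale (SE 0.07, edgeR, adjusted p = 0.000358) and fell by 0.60 between days 1 and 20 of treatment (SE 0.07, adjusted p = 2.88e-05).

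TGFBI and SPOCK1 lie on the same arm of chromosome 5, 911479 bases apart. Of 14 genes annotated between them, 5 were in the count table and only SMAD5, which encodes a BMP-pathway SMAD, was expressed highly enough to be tested. SMAD5 ranged from 101.3 to 147.7 cpm and had log2 fold changes of 0.12 at day 1 (edgeR, adjusted p = 0.341) and −0.10 at day 20 (adjusted p = 0.395). The other 4, VTRNA2-1, SMAD5-AS1, SMIM32 and TRPC7, stayed below 1 cpm in every library.

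THBS2 (Entrez 7058; chromosome 6, 169615875 to 169654145, minus strand) encodes thrombospondin 2, which limits angiogenesis and takes part in clearing MMP2 and in collagen fibril assembly. Untreated flasks held 40.86, 33.62 and 32.7 cpm on day 1 and 21.35, 23.12 and 25.02 cpm on day 20. Treated flasks held 102, 107.9 and 104.3 cpm on day 1 and 138.2, 162.9 and 135.1 cpm on day 20. None of the 4 conditions overlapped another. THBS2 rose at day 1 with a log2 fold change of 1.55 (SE 0.10, edgeR, adjusted p = 2.01e-07) and at day 20 with 2.64 (SE 0.10, adjusted p = 1.28e-09), the 12th highest of all genes. The time courses diverged: without TGF-β it fell by 0.62 on the log2 scale from D1 to D20 (SE 0.10, edgeR, adjusted p = 0.00025), and with TGF-β it rose by 0.47 (SE 0.09, adjusted p = 0.001).

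THBS1 (Entrez 7057; chromosome 15, 39873280 to 39891667, plus strand) encodes thrombospondin 1, which binds CD47 and activates latent TGF-β. It was at 1770, 3749 and 1533 cpm at D1 and at 3923, 4213 and 3883 cpm at D1+ TGF-β. At D20 it was at 2315, 2521 and 2805 cpm and at D20+ TGF-β at 1963, 2503 and 2601 cpm. The D1 flask of replicate 2 was close to the treated flasks, and the other D1 flasks were the lowest of all 12. With all libraries the day 1 log2 fold change was 0.77 (SE 0.25, edgeR, adjusted p = 0.0375). Without D1 replicate 2 it was 1.29 (edgeR, adjusted p = 6.85e-06), and over 23 alternatives, 4 of which called it, the adjusted p ran from 5.11e-09 to 0.152. The day 20 conditions overlapped, with a log2 fold change of −0.11 (SE 0.25, edgeR, adjusted p = 0.742). Every D20+ TGF-β flask lay below every D1+ TGF-β flask, with a difference of −0.77 on the log2 scale (SE 0.25, edgeR, adjusted p = 0.0204). D20 differed from D1 by 0.12 (SE 0.25, edgeR, adjusted p = 0.719). Without D1 replicate 2, both comparisons passed the threshold, at −0.76 (edgeR, adjusted p = 5.45e-05) and 0.63 (adjusted p = 0.000624). The treated comparison passed in 6 of 23 alternatives. Among these were the fits without D1 replicate 3 (edgeR, adjusted p = 0.00936) and with only the libraries compared (−0.76, adjusted p = 0.000555).

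The promoter windows of the 2 thrombospondin genes are given for the contrast between them, THBS1 at chr15:39873030-39873279 on the plus strand and THBS2 at chr6:169653942-169654191 on the minus strand. Capitals mark the same 5 motifs as for POSTN, and 204 bases of the THBS2 window lay inside the outermost GENCODE extent of that gene.
THBS1: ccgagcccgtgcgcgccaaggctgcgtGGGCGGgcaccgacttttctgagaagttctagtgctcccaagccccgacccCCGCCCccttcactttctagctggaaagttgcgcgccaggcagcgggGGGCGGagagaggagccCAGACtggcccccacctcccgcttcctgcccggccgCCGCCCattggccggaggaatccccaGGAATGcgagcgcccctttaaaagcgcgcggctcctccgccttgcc
THBS2: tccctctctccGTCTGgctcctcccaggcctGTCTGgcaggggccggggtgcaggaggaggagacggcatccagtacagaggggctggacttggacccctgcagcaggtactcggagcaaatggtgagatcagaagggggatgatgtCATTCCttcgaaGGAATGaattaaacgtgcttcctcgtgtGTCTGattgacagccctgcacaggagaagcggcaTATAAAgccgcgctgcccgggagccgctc
The THBS1 window, with 69.6% G and C, held 4 copies of GGGCGG, 1 of CAGAC and 1 of GGAATG, and no TATAAA. The THBS2 window, with 60.0% G and C, held 3 copies of CAGAC, 2 of GGAATG and 1 of TATAAA, the latter 29 bases before the start as in POSTN, and no GGGCGG. The GC box was in 42.6% of all windows and the TEAD core in 11.9%. Of the windows not printed, SPARC held GGAATG once, TNC held CAGAC and GGGCGG once each, and TGFBI held GGGCGG 3 times. Only these exact spellings were searched, so the absence of TATAAA does not show that a window lacks a TATA box. Near spellings, such as tttaaaa in the THBS1 window and tatataa in the TNC window, were not marked. A match describes letters in a window, not binding.

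TNC (Entrez 3371; chromosome 9, 117781854 to 117880486, minus strand) encodes tenascin-C, a large hexameric glycoprotein with many splice forms, which gene counts do not separate. Its levels were 886.1, 574.6 and 699.1 cpm at D1 and 1927, 2082 and 1811 cpm at D1+ TGF-β. At day 20 they were 683.9, 654.4 and 637.1 cpm without TGF-β and 887.3, 939.1 and 836.9 cpm with it. Treated flasks were above untreated ones at both times, by a much smaller margin at day 20. The day 1 rise had a log2 fold change of 1.43 (SE 0.13, edgeR, adjusted p = 4.32e-06). At day 20 it was 0.43 (SE 0.12, edgeR, adjusted p = 0.0128), which missed the threshold; over 23 alternatives the adjusted p ran from 1.69e-09 to 0.0491, and 9 of them, among them those without D1 replicate 1 (0.00172) and without D1 replicate 2 (0.00108), called it. TNC fell by 1.13 on the log2 scale between days 1 and 20 of treatment (SE 0.12, edgeR, adjusted p = 1.32e-05) and differed by −0.13 between D20 and D1 (SE 0.12, adjusted p = 0.405).

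**Figure D2:**
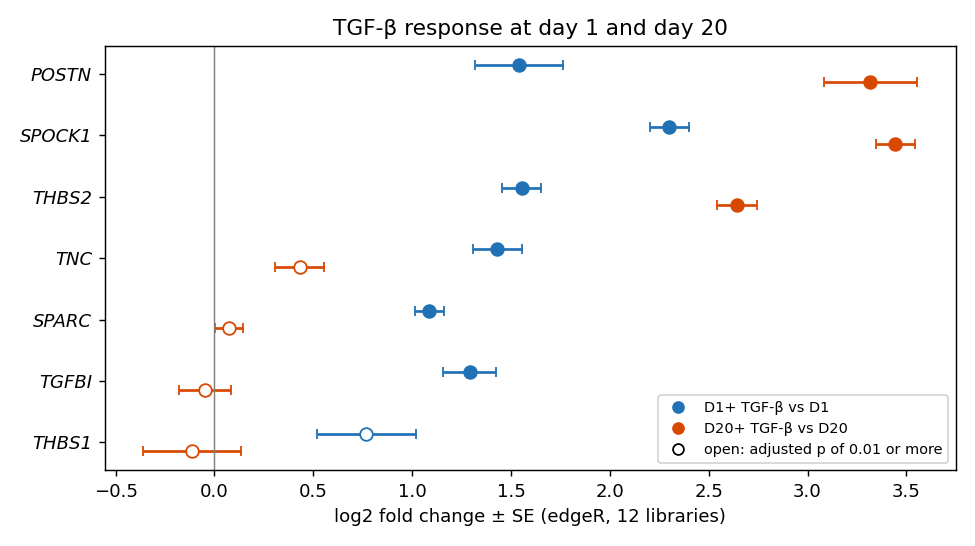
Log2 fold change ± SE of D1+ TGF-β vs D1 (blue) and D20+ TGF-β vs D20 (orange) for each gene, with open points where the adjusted p was 0.01 or more. The day 20 value lies right of the day 1 value for POSTN, SPOCK1 and THBS2 and left of it for TNC, SPARC, TGFBI and THBS1.

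The TGF-β responses at the 2 times were compared by an interaction term in the same fit. The response of POSTN, SPOCK1 and THBS2 was larger at day 20 than at day 1, and that of SPARC, TNC and TGFBI was smaller, so 6 of the 7 genes differed against 10.4% of all genes (4.51% larger and 5.87% smaller). The difference was 1.78 on the log2 scale for POSTN (SE 0.31, edgeR, adjusted p = 0.0015), 1.15 for SPOCK1 (SE 0.14, adjusted p = 0.000105) and 1.09 for THBS2 (SE 0.14, adjusted p = 0.000175). It was −1.34 for TGFBI (SE 0.19, edgeR, adjusted p = 0.000347), −1.01 for SPARC (SE 0.10, adjusted p = 3.35e-05) and −0.999 for TNC (SE 0.17, adjusted p = 0.00155). All 6 remained past the threshold under each of 22 alternatives. For THBS1 the difference was −0.88 (SE 0.35, edgeR, adjusted p = 0.0913), and without D1 replicate 2 it was −1.39 (adjusted p = 4.18e-05).

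Comparing day 20 with day 1 shows from which side each response changed. With TGF-β, POSTN, SPOCK1 and THBS2 rose and SPARC and TNC fell, 5 of the 7 genes against 34.8% of all genes. Without TGF-β, TGFBI, SPARC and SPOCK1 rose and THBS2 fell, 4 of the 7 against 36.4% of all genes. Of these, the SPOCK1 rise was called in only 8 of 23 alternatives. The share called among the 7 in the untreated comparison was thus not far from that of all genes. These comparisons share conditions with those of the TGF-β response and are not independent of them. For TGFBI, the untreated level rose to the range of treated cells of day 20, for TNC the treated level fell towards that of untreated cells, and SPARC showed both.

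**Figure D3:**
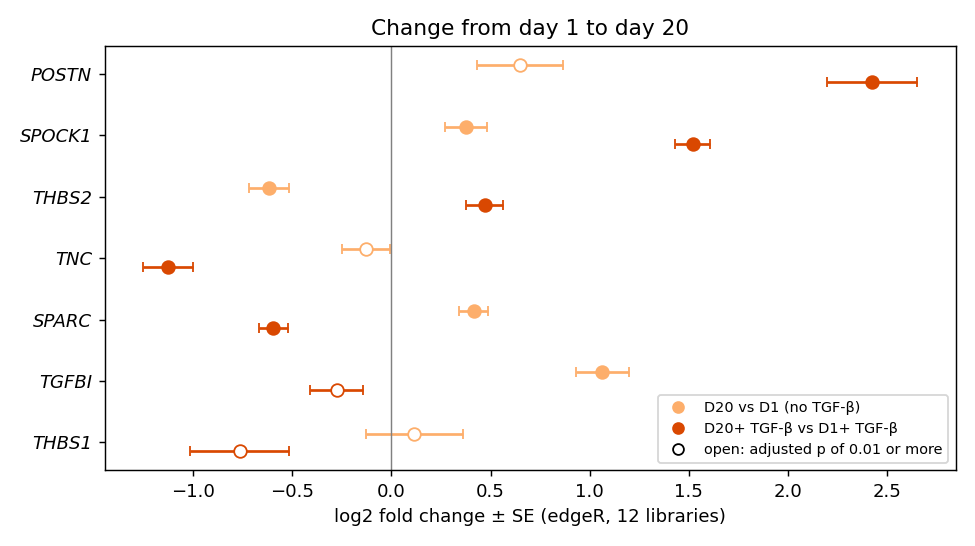
Log2 fold change ± SE from day 1 to day 20 without TGF-β (light orange) and with TGF-β (dark orange) for each gene, with open points where the adjusted p was 0.01 or more. THBS2 and SPARC have values of opposite sign in the 2 comparisons, and both of their comparisons passed the threshold; TGFBI and THBS1 also have opposite signs, with 1 and 2 open points.

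The ratio of counts of related genes within a library does not depend on scaling between libraries. In untreated cells THBS1 counts exceeded THBS2 counts 60.95-fold on day 1 (geometric mean of 3 flasks, 43.31 to 111.5) and 109.8-fold on day 20 (108.4 to 112.1). In treated cells the ratio was 38.24 on day 1 (37.21 to 39.05) and 16.14 on day 20 (14.2 to 19.26). By the means, the thrombospondin pair was thus most balanced after long treatment and least so in untreated cells of the same day. D1 replicate 2, at 111.5, lay within the range of the D20 flasks, and without it the D1 ratio was 45.07. On day 1 TGFBI counts exceeded POSTN counts 10.46-fold in untreated cells (6.622 to 20.3) and 8.459-fold in treated cells (7.665 to 9.904), and these overlapped; without D1 replicate 2 the untreated ratio was 7.514, below the treated one. On day 20 TGFBI exceeded POSTN 13.33-fold in untreated and 1.286-fold in treated cells on day 20 (0.9282 to 1.561 in the last), where POSTN was ahead in 1 flask, replicate 3. For SPARC over SPOCK1 the untreated ratios were 35.0 and 35.54 on days 1 and 20, and the treated ones 14.91 and 3.437 (3.387 to 3.538 in the last). With 3 flasks against 3, an exact permutation test cannot give a p below 0.1, so no test was made of these ratios.

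**Figure D4:**
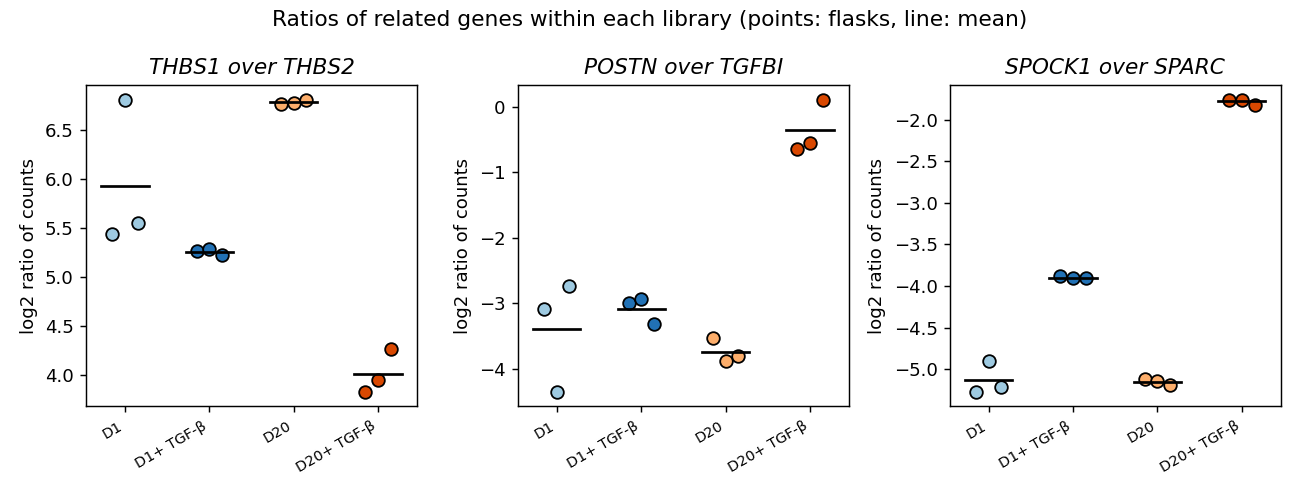
Log2 ratio of counts of 3 pairs of related genes within each library, with the mean of the 3 flasks of a condition as a line. At D20+ TGF-β the ratio of THBS1 to THBS2 is the lowest, and those of POSTN to TGFBI and of SPOCK1 to SPARC are the highest.

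Per kilobase of the longest annotated transcript, TGFBI had the highest level of the 7 in every condition, from 578.5 ± 104.9 cpm per kb at D1 (SD, n = 3) to 1416 ± 13.16 at D1+ TGF-β. The order below it was THBS1, SPARC, TNC, POSTN, THBS2 and SPOCK1 at D1 and at D1+ TGF-β. At D20 the levels of SPOCK1 (4.275 ± 0.0715 cpm per kb) and THBS2 (3.986 ± 0.3156) overlapped, as did those of TNC (77.47 ± 2.784) and POSTN (74.57 ± 6.275). At D20+ TGF-β POSTN was the second highest, at 743.5 ± 90.51 cpm per kb, ahead of THBS1 at 302.5 ± 44.09, and SPOCK1 (46.62 ± 3.672) was ahead of THBS2 (25.02 ± 2.616). All neighbours in these orders were apart in every flask except the pairs named as overlapping and TGFBI with THBS1 at D1. The order depends on the transcript taken, since the median annotated transcript of SPOCK1 has 571 bases against 4824 for the longest. Per kilobase of the median transcript, SPARC at D20+ TGF-β was at 1341 cpm per kb, ahead of POSTN at 766.2 and THBS1 at 562.9. By that length the mean of SPARC was above that of THBS1 in every condition. Together the 7 genes held 0.5558% ± 0.1388 of all counts in untreated and 1.143% ± 0.0372 in treated cells on day 1, and 0.7336% ± 0.0214 and 1.009% ± 0.0445 on day 20 (SD, n = 3).

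Spread between the 4 sequencing lanes of a library was small for the abundant genes, with a median coefficient of variation of 0.748% for THBS1 and 1.003% for TGFBI, and larger for SPOCK1 (6.431%) and THBS2 (5.13%). Spread between flasks reached 51.76% for THBS1 and 37.56% for POSTN, both at D1. Reads of genes that overlap on the opposite strand could not be told apart here, since the use of strand in counting was not given in the sources used here. FSIP1, opposite THBS1, did not exceed 1.371 cpm, and DELEC1, opposite TNC, did not exceed 0.2329 cpm. THBS2-AS1, CLMAT3, THBS1-AS1 and AC106775.1, opposite THBS2, SPARC, THBS1 and SPOCK1, were not in the count table. Their levels could not be checked.

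Of 24 other matricellular genes listed, 10 were expressed highly enough to be tested. At day 1, 3 were higher and 2 lower (13.4% of all genes were called), and at day 20, 1 was higher and 1 lower (27.5% of all genes were called). Their median log2 fold change was −0.19 at day 1 and −0.10 at day 20, against −0.02 and 0.01 for all genes, and 1.43 and 0.43 for the 7 genes. FBLN5, which encodes the elastic fibre protein fibulin-5, was at 179.8 to 195.5 cpm in untreated and 351 to 366.9 cpm in treated flasks on day 1, and at 182.5 to 203.9 and 419 to 476.8 cpm on day 20. It rose by 0.94 on the log2 scale at day 1 (SE 0.07, edgeR, adjusted p = 1.06e-06) and by 1.23 at day 20 (SE 0.07, adjusted p = 4.4e-08). CCN3, listed under its older symbol NOV, was at 35.8, 36.29 and 41.4 cpm at D1 and 14.05, 12.71 and 16.77 cpm at D1+ TGF-β, a fall by 1.40 on the log2 scale (SE 0.10, edgeR, adjusted p = 7.64e-07). At day 20 its log2 fold change was 0.33 (SE 0.10, edgeR, adjusted p = 0.0199). CCN1 (CYR61) and FSTL1 rose at day 1 and LGALS3 fell, at log2 values of 0.83, 0.92 and −0.45 (adjusted p by edgeR of 0.000106, 2.55e-05 and 0.00795), and FBLN1 fell at day 20, at −0.52 (adjusted p = 0.00143). The number of these genes called at day 1 was 8 in place of 5 without D1 replicate 2, and at day 20 it was 4 in place of 2. THBS3 and LGALS1, relatives of THBS1 and LGALS3, passed the test at neither time, but without D1 replicate 2 LGALS1 was called lower at day 1, at −0.36 (edgeR, adjusted p = 0.00102). Under the expression limit and untested were COMP, a thrombospondin relative, and SMOC1, a SPARC relative, both chosen after their values were seen. On days 1 and 20 COMP had means of 0.7125 and 0.6868 cpm without and 6.544 and 8.377 cpm with TGF-β. Treated flasks of day 20 were at 10.95, 10.7 and 3.476 cpm for COMP, with a mean of 10.83 cpm without replicate 3. SMOC1 had means of 4.431 and 0.5084 cpm without and 6.754 and 18.66 cpm with TGF-β, but it varied between flasks, at 2.617, 7.833 and 2.844 cpm at D1 and 28.98, 22.21 and 4.791 cpm in treated flasks of day 20. Without D1 replicate 2 its D1 mean was 2.73 cpm, and without D20+ TGF-β replicate 3 its treated mean of day 20 was 25.6 cpm.

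Of 16 genes for receptors of these proteins, 12 were tested. At day 1, 4 were higher and 1 lower (13.4% of all genes were called), and at day 20, 2 were higher and 5 lower (27.5% of all genes were called). ITGB3, the β3 integrin subunit that pairs with ITGAV to bind periostin, thrombospondin and tenascin-C, moved in opposite directions at the 2 times. On day 1 it was at 14.78, 22.78 and 11.12 cpm in untreated and 57.84, 65.93 and 61.25 cpm in treated flasks. On day 20 untreated flasks had 34.98, 40.34 and 46.01 cpm and treated flasks 18.54, 18.38 and 13.72 cpm. Treated flasks were all higher at day 1, with a log2 fold change of 1.91 (SE 0.20, edgeR, adjusted p = 1.61e-05), and all lower at day 20, with −1.26 (SE 0.20, adjusted p = 0.000218). CD47, the receptor that binds the C-terminal part of thrombospondins, fell at both times. Its log2 fold change was −0.58 at day 1 (SE 0.07, edgeR, adjusted p = 6.8e-05) and −1.08 at day 20 (SE 0.07, adjusted p = 1.27e-07), where untreated flasks averaged 411.6 cpm and treated flasks 195.2 cpm. ITGA4, the α4 integrin subunit, fell at day 20 with a log2 fold change of −1.16 (SE 0.16, edgeR, adjusted p = 8.18e-05). ITGAV, ITGB1 and SDC1 rose at day 1, at log2 values of 0.74, 0.66 and 0.54 (adjusted p by edgeR of 0.00565, 4.12e-05 and 0.00578), and SDC1 rose at day 20 too, by 0.70 (adjusted p = 0.000624). Also at day 20, ITGB5 was higher, at 0.56 (edgeR, adjusted p = 0.00118). SDC4 and ITGA3 were lower at day 20, at −0.89 and −0.64 (adjusted p by edgeR of 2.2e-06 and 0.00214). Without D1 replicate 2, ITGB5 and CALR were also called higher at day 1, at 0.38 and 0.34 (adjusted p by edgeR of 0.00566 and 0.00302).

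Of 15 genes for matrix partners and proteases that act with these proteins, 14 were tested. At day 1, 7 were higher and none lower, and at day 20, 6 were higher and DCN, the proteoglycan decorin, was lower, with a log2 fold change of −0.98 (edgeR, adjusted p = 0.000193). Over all genes 13.4% were called at day 1 (6.89% higher) and 27.5% at day 20 (12.8% higher). The median log2 fold change of the list was 0.52 at day 1 and 0.44 at day 20, against −0.02 and 0.01 for all genes. Without D1 replicate 2, DCN was called lower at day 1 as well, at −0.44 (edgeR, adjusted p = 0.00508), TGFB1 was called higher at both times, at 0.97 and 0.51 (adjusted p of 2.17e-05 and 0.00053), and COL1A2 was called higher at day 20, at 0.39 (adjusted p = 0.00903). FN1, fibronectin, which binds tenascin-C and periostin, rose from a mean of 9465 to 23930 cpm at day 1 and from 7136 to 27660 cpm at day 20, log2 fold changes of 1.34 (SE 0.13, edgeR, adjusted p = 1.05e-05) and 1.95 (SE 0.13, adjusted p = 1.57e-07). MMP2, the gelatinase whose protein thrombospondin 2 helps to clear, rose by 0.57 on the log2 scale at day 1 (edgeR, adjusted p = 0.00212) and by 1.25 at day 20 (adjusted p = 1.7e-06). COL5A1, COL1A1 and LOX, the last encoding the collagen cross-linking enzyme lysyl oxidase, rose at day 1 by 1.87, 1.09 and 1.28 on the log2 scale (adjusted p by edgeR of 4.69e-07, 2.5e-05 and 3.87e-07) and at day 20 by 0.87, 0.99 and 0.74 (adjusted p of 0.000138, 2.39e-05 and 2.09e-05).

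**Figure D5:**
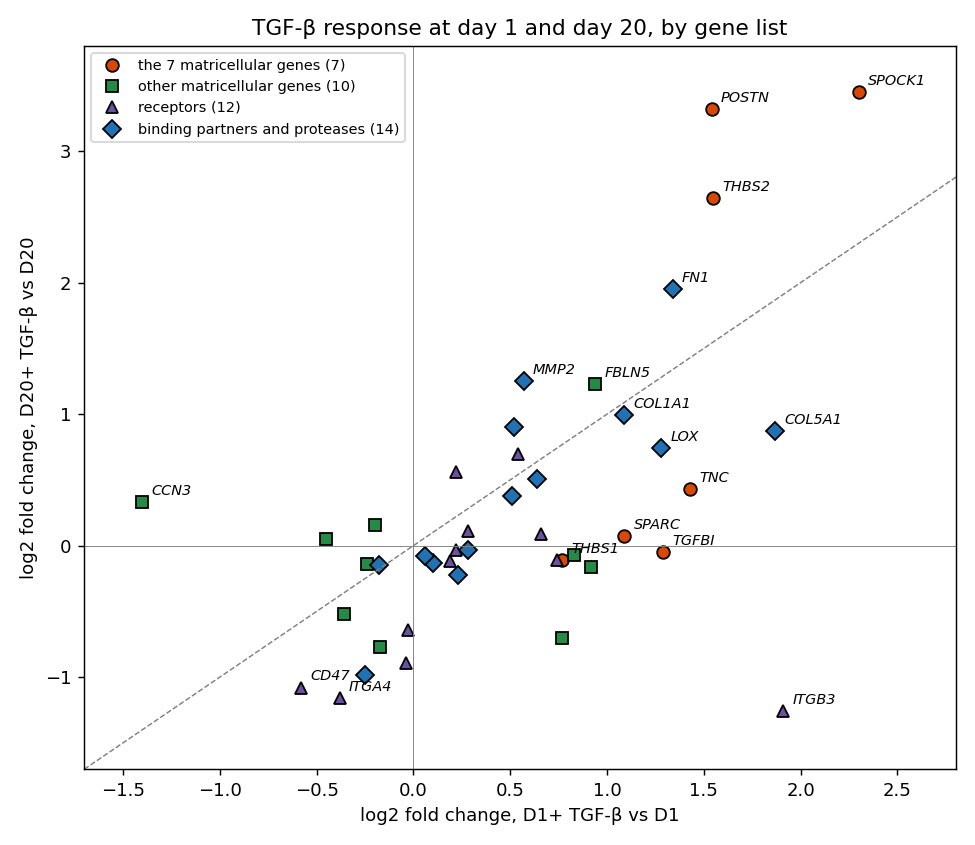
Log2 fold change of D20+ TGF-β vs D20 (vertical) against D1+ TGF-β vs D1 (horizontal) for the tested genes of 4 lists, with the line of equal response dashed. POSTN, SPOCK1 and THBS2 lie above the line, ITGB3 and CCN3 lie on opposite sides of 0 on the 2 axes.

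The genes whose log2 cpm most resembled each of the 7 over the 12 libraries were named by Pearson's r, as a description, since the libraries fall into 4 conditions. THBS2 resembled BGN (0.995), FN1 (0.987) and NTM (0.985), of which BGN encodes the proteoglycan biglycan. SPOCK1 resembled FAP (0.989), RCN3 (0.987) and MMP14 (0.984), where FAP is a surface protease of activated fibroblasts. POSTN resembled MMP2 (0.969), USP3 (0.965) and RNMT (0.964). SPARC resembled BPGM (0.974), ZNF468 (0.972) and ITGB1 (0.964), and TNC resembled AFAP1 (0.97), STARD4-AS1 (0.964) and RUSC2 (0.96). TGFBI resembled FSTL1 (0.952), PXDN (0.951) and KSR1 (0.934). THBS1 resembled GOLIM4 (0.976), ATP10D (0.965) and DACT1 (0.962). None of the 7 was among the 3 genes most like another, but some of them resembled each other. Among the 7, r was highest for POSTN with SPOCK1 (0.94), SPOCK1 with THBS2 (0.93) and SPARC with TNC (0.88). It was lowest for POSTN with THBS1 (−0.06).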

How the data were processed

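RNA of WI-38 cells in 12 libraries was made with a directional kit, sequenced as paired ends on 4 lanes per library, trimmed with Trimmomatic and aligned to hg19 with Rsubread by the authors, who deposited raw counts per gene and lane. Deposited log2 values per gene and lane, made by the authors with limma's voom, were used for gene symbols and as an alternative. The counting program was not given in the sources used here. All 48 lane columns were assigned to libraries, and counts were summed over the 4 lanes of each library.

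The 9490 genes that reached 10 cpm in 6 or more libraries were fitted with edgeR 4.0.16 in R 4.3.3, using TMM factors, 1 mean per condition over all 12 libraries, the quasi-likelihood test and Benjamini-Hochberg adjustment over all genes; calls were made at an adjusted p below 0.01. The study instead took the lanes as samples in limma. The SE is the log2 fold change divided by the root of F. The fits were tested on simulated data. Levels are cpm scaled by TMM factors, as mean ± SD of 3 flasks. Lengths came from GENCODE on GRCh37.

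The 7 genes, the other lists and the tests were chosen with earlier results of these data known. Named from the other lists were called genes with a log2 fold change of at least 1 in size at day 1 or day 20, and further ones were named after their values were seen. For likeness, the 3 genes with the highest r were named. Alternatives were DESeq2 1.42.0, limma 3.58.1 on counts, lanes or log2 values, other scaling and filters, fewer libraries and a replicate block.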

Additional observations from a re-analysis of the deposited data

Results flagged for a closer look

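The TGF-β response differed between the 2 times, by the interaction term, for 6 of the 7 genes. It was larger at day 20 by 1.776 on the log2 scale for POSTN, by 1.145 for SPOCK1 and by 1.089 for THBS2. Day 20 minus day 1 gave −1.013 for SPARC, −0.999 for TNC and −1.338 for TGFBI. These are the same values, to more digits, as those of the comparison of responses, and 10.4% of all genes were called in that comparison.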

How the results depend on the processing

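Among 798 log2 fold changes of the 7 genes recomputed under alternatives, 748 kept their direction and their side of the threshold. The response of TGFBI at day 20 turned positive without D20+ TGF-β replicate 3 (0.081) and with D1 replicate 2 left out as well (0.097), that of THBS1 without D20+ TGF-β replicate 1 (0.025); leaving out each library in turn gave −0.129 to 0.081 for TGFBI and −0.19 to 0.025 for THBS1. For D20 vs D1, THBS1 was −0.052 without D1 replicate 1 and −0.116 without D1 replicate 3, and TNC was 0.048 without D1 replicate 1, within ranges of −0.116 to 0.629 and −0.263 to 0.048; no value of reversed sign passed the threshold. With the 48 lanes as samples, 5 of the 7 genes were called in D20+ TGF-β vs D20 in place of 3, and of the other matricellular genes 8 in place of 5 (D1+ TGF-β vs D1), 6 in place of 2 (D20+ TGF-β vs D20), 10 in place of 6 (day 20 against day 1 with TGF-β), 6 in place of 3 (D20 vs D1) and 8 in place of 4 (difference of responses); lanes repeat the same RNA. Without a gene filter the count of other matricellular genes was 8 in D20+ TGF-β vs D20 and 7 in D20 vs D1, and with filterByExpr 6 and 6; more genes were tested in both. With only the compared libraries it was 4 in D20+ TGF-β vs D20; that setting gives no value for the difference of responses. Leaving out each library in turn gave 4 to 8 called other matricellular genes in D1+ TGF-β vs D1 and 2 to 4 in D20+ TGF-β vs D20. Leaving out D1 replicate 2 and D20+ TGF-β replicate 3 together, chosen after seeing the data, gave 8 and 4 of them. It also gave 7 of the 7 genes in D20 vs D1 in place of 4, and the cause was not tested. The share of all genes called in this setting and with the 48 lanes as samples is not given here. These counts of the 7 genes can thus not be set against all genes. The deviations of same-numbered libraries correlated at r = −0.223 to 0.325 over 18 pairs, 4 of them over 0.1. In 8 of 36 cases a library correlated best, within another condition, with its own number. This check found no clear pairing by number, but with 3 flasks per condition it cannot exclude pairing. With the replicate number as a block, the same counts resulted and no call of the 7 genes changed. For example, 6 of the 7 genes were called in D1+ TGF-β vs D1 and 3 in D20+ TGF-β vs D20. Scaling by library size alone moved the median difference of responses over all genes to 0.124 and the genes called higher and lower from 654 and 617 to 500 and 931 in D1+ TGF-β vs D1, from 1210 and 1399 to 1487 and 1155 in D20+ TGF-β vs D20, from 1630 and 1677 to 1879 and 1489 for day 20 against day 1 with TGF-β, from 1789 and 1668 to 1375 and 2133 in D20 vs D1 and from 428 and 557 to 761 and 381 in the difference of responses; no log2 fold change of the 7 genes turned direction. With the median transcript length, levels over the 12 libraries moved to 148.7 cpm per kb for SPOCK1, 1399 for SPARC, 672.5 for THBS1, 304.4 for TNC and 2686 for TGFBI.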

Other observations

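CCN2 (CTGF), a matricellular growth factor regulator and a well known TGF-β target, had a mean of 381 cpm at D1 and 650.5 cpm at D1+ TGF-β, and of 437 cpm at D20 and 269.7 cpm at D20+ TGF-β. Treated flasks were all higher at day 1 and all lower at day 20, with log2 fold changes of 0.77 (SE 0.21, edgeR, adjusted p = 0.0151) and −0.70 (SE 0.21, adjusted p = 0.0156), neither past the threshold. The D1 flasks were at 289.1, 581.7 and 272.3 cpm, and without D1 replicate 2 both passed, at 1.22 (edgeR, adjusted p = 2.99e-08) and −0.69 (adjusted p = 3.3e-07). The difference of the responses, −1.47, passed the threshold with all libraries (edgeR, adjusted p = 0.00329). ITGA8, the α8 integrin subunit, was under the expression limit and untested, with means of 15.37 cpm at D1 and 114.3 cpm at D20 against 3.837 and 3.946 cpm with TGF-β. Its D1 mean was 10.09 cpm without D1 replicate 2, the flask at 25.91 cpm. CCN4 (WISP1), also untested, had means of 2.7 and 1.032 cpm on day 1 and 37.66 and 20.94 cpm on day 20, without and with TGF-β. Its D20+ TGF-β flasks were at 31.74, 24.03 and 7.046 cpm, and without replicate 3 their mean was 27.88 cpm. These 3 genes were chosen after their values were seen.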
